A study of Homo sapiens with 6 samples.

Results

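Transcripts of insulin-like growth factor (IGF) binding proteins and IGF signalling were followed by RNA sequencing in UMUC3 cells, an established human bladder cancer line. The 10 genes, of 60605 in the count table, were IGFBP2, IGFBP3, IGFBP4, IGFBP5, IGFBP6, IGFBP7, the ligand gene IGF2, the receptor gene IGF1R and the docking protein genes IRS1 and IRS2, found by Ensembl identifier. They were chosen by the measured difference between the groups, since IGFBP3 was higher with the insert in these same libraries, so every value of the 10 genes in that contrast is a description and not a test. The cells had been infected with TIM-1-PLVX-IRES-zsgreen (the TIM-1 group) or with PLVX-IRES-Zsgreen (the empty-vector group). Each group held 3 libraries, numbered 1 to 3. Both groups carry the vector and its green fluorescent ZsGreen reporter, and they differ by the TIM-1 insert. HAVCR1 encodes TIM-1, a membrane protein that binds phosphatidylserine on dying cells. The labels do not say whether replicates were separate cultures, whether cells were sorted or cloned, or how long after infection RNA was taken. The p-values thus cover the scatter among the 6 libraries alone, and that scatter may be technical. In bulk RNA fewer expressing cells and less RNA per cell cannot be told apart.

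IGF binding proteins are secreted carriers that hold IGF1 and IGF2 outside the cell, lengthen their life and limit their access to the receptor. Free IGF activates the receptor tyrosine kinase encoded by IGF1R, which phosphorylates the docking proteins IRS1 and IRS2 and through them the PI3K and AKT cascade and the RAS and MAPK cascade. AKT in turn keeps FOXO transcription factors out of the nucleus. Proteases such as PAPP-A cut binding proteins and release the ligand.

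Values of single libraries are listed below in the order of replicates 1, 2 and 3. Between 14312387 and 18605914 reads were counted per library. HAVCR1, the gene carried by the vector, had 7069, 9824 and 11479 counts in the TIM-1 libraries, against 4, 0 and 0 counts in the empty-vector libraries. Of 13 urothelial and epithelial marker genes only 5 had enough counts to be tested, led by KRT18 and KRT8, and EPCAM, KRT20 and UPK3A had 0 counts in every library. All 6 mesenchymal markers were tested, and VIM was the most abundant. The 6 leukocyte markers summed to at most 0.0690 CPM, the depth-scaled read count, and the 5 endothelial markers to at most 0.276 CPM in any library. Of 7 fibroblast markers COL1A1 and PDGFRB were tested, and DCN had 0 counts in all libraries. The libraries numbered 1 differed from those numbered 2 and 3: once the group was fitted, 1673 of 14479 tested genes were higher in them and 1740 lower (edgeR quasi-likelihood test, adjusted p under 0.05), or 2017 higher and 1379 lower with no scaling beyond library size.

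The start regions of the pair of genes with the largest differences are shown first. They are the 250 bases before the RefSeq start (GRCh38.p14), 5′ to 3′ on the strand of the gene. IGFBP3 is on the minus strand and its window is chr7:45921273-45921522. IGFBP6 is on the plus strand and its window is chr12:53097417-53097666. The GENCODE gene spans given further below begin upstream of these RefSeq starts, so the IGFBP3 window and most of the IGFBP6 window lie inside them. Capitals mark ACGTG or GCGTG, the core letters of hypoxia response elements, and TGTTTAC, the core letters of FOXO sites, each searched on both strands.
IGFBP3: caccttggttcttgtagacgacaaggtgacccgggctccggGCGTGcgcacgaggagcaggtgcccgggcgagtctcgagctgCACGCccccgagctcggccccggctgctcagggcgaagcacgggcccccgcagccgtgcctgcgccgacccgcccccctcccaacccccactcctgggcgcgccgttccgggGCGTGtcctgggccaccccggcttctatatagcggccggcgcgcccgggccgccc
IGFBP6: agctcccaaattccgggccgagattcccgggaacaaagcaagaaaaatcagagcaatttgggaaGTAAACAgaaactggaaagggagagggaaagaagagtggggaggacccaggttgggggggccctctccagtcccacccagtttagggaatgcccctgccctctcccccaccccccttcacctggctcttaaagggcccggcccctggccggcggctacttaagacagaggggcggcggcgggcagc
The IGFBP3 window held 3 matches to the hypoxia letters and 0 to the FOXO letters, and 76.0% of its bases were G or C. The IGFBP6 window held 0 matches to the hypoxia letters and 1 to the FOXO letters, at 61.2% G or C. Of 35116 RefSeq start windows of the same length, 43.2% held at least 1 match to the hypoxia letters and 2.98% at least 1 to the FOXO letters. At least 2 hypoxia matches were found in 19.4% of these windows and at least 4 in 3.22%. The windows had a median of 58.0% G or C. Windows were found for 8 of the 10 genes. Among the others, that of IGF1R held 5 matches to the hypoxia letters and that of IRS1 held 1. IGFBP2 has 3 windows, of which 1 held 1 match, and the windows of IGFBP4, IGFBP5 and IRS2 held 0. A match of letters is no evidence of a bound site.

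Per length, IGFBP6 and IGFBP3 transcripts were the most abundant of the 10, and IGFBP5 and IGFBP7 were close to absent. Levels between genes are compared as CPM per kilobase of annotated exon, averaged over the 6 libraries. IGFBP6 stood at 46.5 and IGFBP3 at 43.8 CPM per kb. These neighbours did not keep their order: IGFBP6 was above IGFBP3 in 5 of 6 libraries, and the ratio between them ran from 0.899 to 1.44. IGFBP4 followed at 13.5, IRS1 at 6.54 and IGF1R at 2.39 CPM per kb, each below its upper neighbour in all 6 libraries. IRS2 stood at 1.98 CPM per kb and was below IGF1R in 5 of 6 libraries. IGFBP2 at 0.845 and IGF2 at 0.442 CPM per kb came last among the 8 tested genes. Of the IGF2 exon bases, 73.7% are also annotated to other genes on its strand, namely the read-through gene INS-IGF2, a second IGF2 entry and AC132217.1, all with 0 counts. The sources used here do not say how reads in shared exons were counted, which limits the measured IGF2 level.

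**Figure D1:**
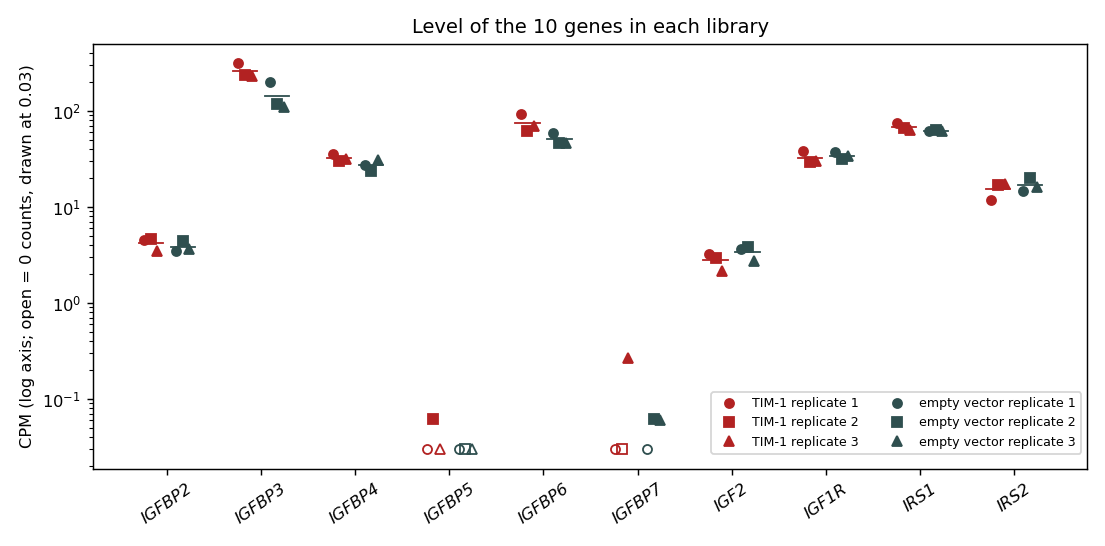
Level of the 10 genes in each library in CPM on a log axis, TIM-1 libraries on the left of each pair in red and empty-vector libraries on the right in dark grey. Points are libraries, bars are group means, open symbols are 0 counts; the TIM-1 points of IGFBP3 and IGFBP6 all lie above the empty-vector points.

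IGFBP3 encodes the main carrier of IGFs in blood, where it binds them together with an acid-labile subunit, and it also has reported actions on cells that do not need IGF. The gene (ENSG00000146674) spans 45912245 to 45921874 of chromosome 7, minus strand (GRCh38). Its counts were 4529, 3773 and 4251 in the TIM-1 libraries, and 3150, 1915 and 1806 in the empty-vector libraries. Scaled for depth, this was 312, 233 and 229 CPM in TIM-1 libraries, against 197, 118 and 109 CPM in empty-vector libraries. All 3 TIM-1 libraries lay above all 3 empty-vector libraries, and in each group replicate 1 was the highest. The means were 258 ± 46.8 CPM in TIM-1 libraries, against 142 ± 48.5 CPM in empty-vector libraries (± SD, n = 3 each). Between same-numbered libraries the log2 difference was 0.66 for replicate 1, 0.98 for replicate 2 and 1.07 for replicate 3. The fitted log2 fold change was 0.87 (SE 0.24) with the libraries unpaired and 0.90 (SE 0.07) with the replicate number as a block. Each SE comes from the edgeR fit, which pools variance across genes, and is not the spread of the 3 differences between same-numbered libraries. Without the replicate 1 pair the blocked value was 1.02. Without TIM-1 replicate 1 alone the unpaired value was 0.71, and without empty-vector replicate 1 alone it was 1.18.

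IGFBP6 encodes a binding protein that prefers IGF2 over IGF1. The gene (ENSG00000167779) spans 53097436 to 53102345 of chromosome 12, plus strand. Its counts were 1346, 999 and 1291 in the TIM-1 libraries, and 939, 745 and 765 in the empty-vector libraries. In CPM these were 92.9, 61.8 and 69.7 in TIM-1 libraries, against 58.8, 46.1 and 46.1 in empty-vector libraries. The groups did not overlap (the nearest libraries were TIM-1 replicate 2 and empty-vector replicate 1), and replicate 1 was again the highest library of each group. The means were 74.8 ± 16.1 CPM in TIM-1 libraries, against 50.3 ± 7.34 CPM in empty-vector libraries (± SD, n = 3 each). The log2 fold change was 0.57 (SE 0.16) unpaired and 0.56 (SE 0.08) with the block, and 0.39 unpaired without TIM-1 replicate 1. Over the 6 libraries, log2 CPM of IGFBP6 and IGFBP3 had a Pearson r of 0.95, with the group and the replicate 1 difference shared by both genes.

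IGFBP4 encodes a carrier that inhibits IGF and is cut by PAPP-A. It stood at 35.3, 30.0 and 31.5 CPM in the TIM-1 libraries, against 27.5, 23.5 and 31.1 CPM in the empty-vector libraries. The groups overlapped through empty-vector replicate 3, and the log2 fold change was 0.24 (SE 0.13) unpaired. IGFBP2, a carrier often made by tumours, had between 64 and 75 counts in TIM-1 libraries and between 55 and 72 counts in empty-vector libraries, with a log2 fold change of 0.13 and a 95% interval from -0.37 to 0.63. IGFBP5 had 0, 1 and 0 counts in TIM-1 libraries, against 0, 0 and 0 in empty-vector libraries. IGFBP7, a lower-affinity relative of the family, had 0, 0 and 5 counts in TIM-1 libraries, against 0, 1 and 1 in empty-vector libraries. A count of 0 allows up to 3 counts, or between 0.162 and 0.207 CPM, so no fold is given for IGFBP5 and IGFBP7, and both fell below the count filter. IGFBP7 shares 18.9% of its exon bases with genes on the opposite strand, and the sources used here do not give a strand setting for the counting.

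The 6 IGFBP transcripts together stood at 154, 112 and 117 CPM per kb in the TIM-1 libraries, and at 100, 71.8 and 73.0 CPM per kb in the empty-vector libraries. The groups did not overlap, and replicate 1 was the highest library of each. IGFBP3 made up 44.3% ± 1.45 of this sum in TIM-1 libraries, against 37.3% ± 5.35 in empty-vector libraries, and IGFBP6 made up 43.3% ± 1.93 in TIM-1 libraries, against 46.1% ± 2.14 in empty-vector libraries (± SD, n = 3 each). The IGFBP3 share was 43.1% in empty-vector replicate 1 and 36.1% and 32.6% in empty-vector replicates 2 and 3, so the range of the empty-vector group reached into that of the TIM-1 group, which ran from 42.9% to 45.8%. IGFBP4 made up 11.6% ± 1.06 in TIM-1 libraries, against 15.6% ± 3.48 in empty-vector libraries (± SD, n = 3 each).

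**Figure D2:**
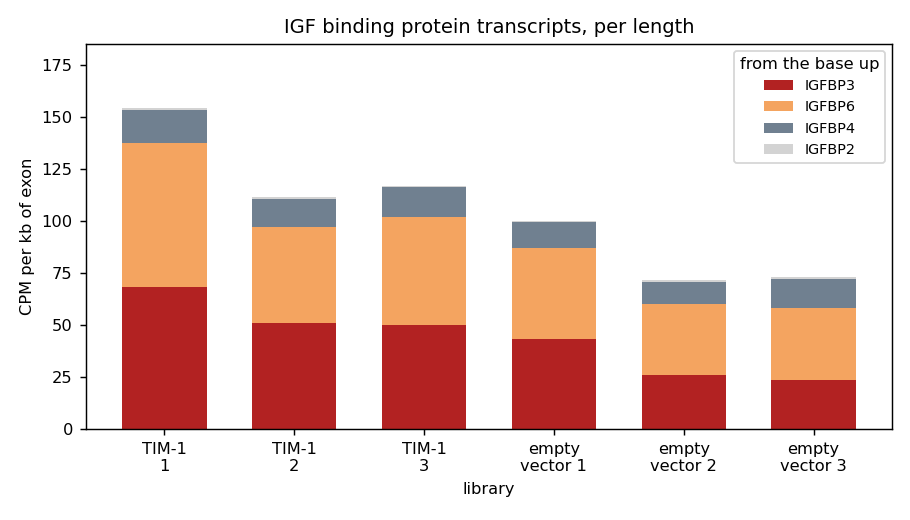
IGF binding protein transcripts in each library as CPM per kb of exon, stacked from IGFBP3 at the base through IGFBP6 and IGFBP4 to IGFBP2, TIM-1 libraries on the left. The stacks reach 154, 112 and 117 in TIM-1 libraries, against 100, 71.8 and 73.0 in empty-vector libraries; IGFBP5 and IGFBP7 are too low to draw.

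The ligand, receptor and docking protein genes had smaller fitted differences between the groups than IGFBP3 and IGFBP6, and their values overlapped. IGF2, the fetal growth factor and the one IGF ligand gene with counts, stood at 3.24, 2.91 and 2.16 CPM in the TIM-1 libraries, against 3.63, 3.83 and 2.71 CPM in the empty-vector libraries. The groups overlapped, and its log2 fold change was -0.30 with a 95% interval from -0.88 to 0.28. Its antisense neighbour IGF2-AS, which overlaps 4.77% or less of its exon bases, had 172 counts over the 6 libraries. IGF1R, the receptor gene, stood at 38.4, 29.5 and 29.8 CPM in TIM-1 libraries, against 37.1, 31.2 and 33.9 CPM in empty-vector libraries. Its values overlapped, and the log2 fold change was -0.07 with an interval from -0.36 to 0.23. IRS1, a docking protein gene, stood at 74.6, 66.8 and 62.4 CPM in TIM-1 libraries, against 61.3, 63.3 and 62.1 CPM in empty-vector libraries, where the spread was small. Its log2 fold change was 0.13 with an interval from -0.09 to 0.34. IRS2, a docking protein gene that FOXO factors induce, stood at 11.7, 17.0 and 17.3 CPM in TIM-1 libraries, against 14.5, 20.1 and 16.2 CPM in empty-vector libraries. TIM-1 replicate 1 was its lowest library, and the log2 fold change was -0.14 unpaired, with an interval from -0.55 to 0.27, and 0.01 without that library. These intervals leave room for changes of either sign.

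Of the 8 tested genes, 0 passed the adjusted threshold of 0.05 without pairing (edgeR), against 0.0138% of all tested genes in either direction. At an unadjusted p under 0.05 it was 2 of the 8, IGFBP3 and IGFBP6, against 5.49% of all tested genes. Unpaired DESeq2 called 1, IGFBP3, against 25 of the 28529 genes it was given. With the replicate number as a block 2 passed, IGFBP3 and IGFBP6, both higher with TIM-1, against 3.22% of all tested genes called higher, 1.79% called lower and 5.01% in either direction. The same 2 genes had no overlap between the groups, against 6.6% of all tested genes with every TIM-1 library above and 5.06% with every one below. In same-numbered pairs IGFBP3, IGFBP4, IGFBP6 and IRS1 were higher in all 3, against 20.1% of all tested genes, and IGF2 was lower in all 3, against 19.1%. The median log2 fold change of the 8 was 0.13 unpaired, against 0.00 for all tested genes. Since the genes were chosen for the rise of IGFBP3 in this contrast, nothing is read from these counts. The pair IGFBP3 and IGFBP6 passed in the blocked fit under each of the 8 alternatives that kept a block, including each pair left out in turn. These refits reuse the contrast that chose the genes, so they describe the dependence on settings and add no support.

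**Figure D3:**
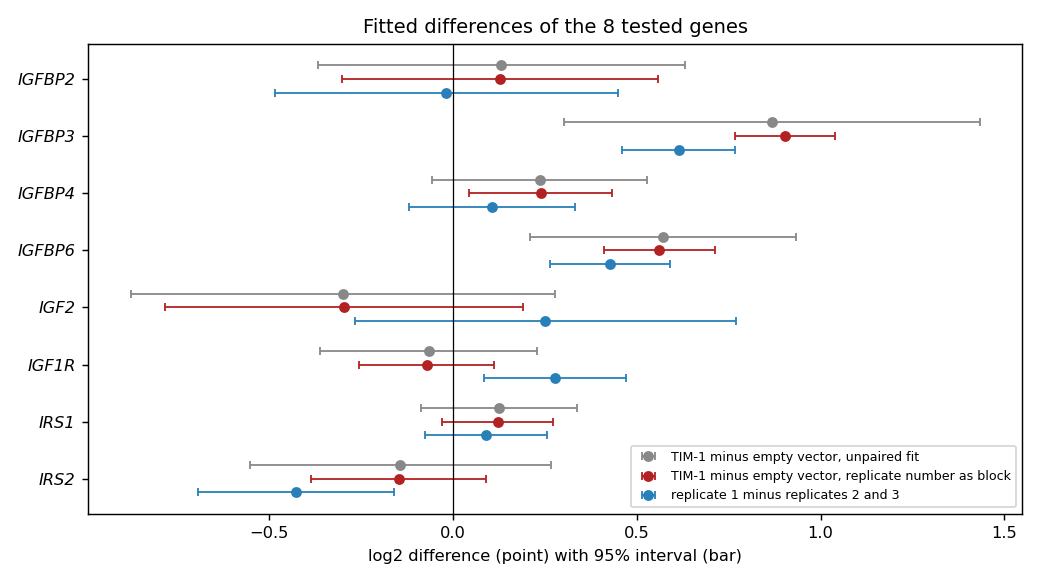
Fitted log2 differences (points) with 95% intervals (bars) of the 8 tested genes, for TIM-1 minus empty vector without pairing (grey) and with the replicate number as a block (red), and for replicate 1 minus replicates 2 and 3 (blue). IGFBP3 at 0.87, 0.90 and 0.61 and IGFBP6 at 0.57, 0.56 and 0.43 lie right of 0 in all 3, and IRS2 lies at -0.43 in the last.

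The contrast between replicate 1 and the other replicates did not enter the choice of the genes. Of the 8 tested genes, 3 were higher and 1 was lower in replicate 1, against 11.6% of all tested genes called higher, 12% called lower and 23.6% in either direction. The same 4 had an unadjusted p under 0.05, against 35.9% of all tested genes. IGFBP3 was higher by 0.61 on the log2 scale (SE 0.07, edgeR adjusted p = 1.49e-06), in both groups: 312 CPM in TIM-1 replicate 1 against 233 and 229 CPM in TIM-1 replicates 2 and 3, and 197 CPM in empty-vector replicate 1 against 118 and 109 CPM in empty-vector replicates 2 and 3. IGFBP6 was higher by 0.43 (SE 0.08, edgeR adjusted p = 0.000312), also in both groups. Both calls held under all 8 alternatives run for this contrast. IGF1R was higher by 0.28 (edgeR adjusted p = 0.0326), with 38.4 CPM in TIM-1 replicate 1 and 37.1 CPM in empty-vector replicate 1 against 29.5 to 33.9 CPM in the other 4 libraries. IRS2 was lower, with a log2 difference of -0.43 (edgeR adjusted p = 0.0179), with 11.7 CPM in TIM-1 replicate 1 and 14.5 CPM in empty-vector replicate 1 against 16.2 to 20.1 CPM in the other 4 libraries. The IGF1R call was lost by DESeq2, without the count filter, and without TIM-1 replicate 2, TIM-1 replicate 3 or empty-vector replicate 2 (adjusted p from 0.0609 to 0.103). The IRS2 call was lost by DESeq2 and without TIM-1 replicate 3 or empty-vector replicate 2 (adjusted p from 0.0545 to 0.0634). INSR, the insulin receptor gene, was higher in replicate 1 by 0.38 (edgeR adjusted p = 0.0121), while its TIM-1 log2 fold change was -0.01 (blocked edgeR adjusted p = 0.984).

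Genes that respond to low oxygen include STC1 and DEPP1, named further below. They differed in the replicate 1 contrast, and in the TIM-1 contrast only with the replicate number as a block. Of 25 listed genes 23 were tested, of which 16 rose and 0 fell with TIM-1 in the blocked fit, against 3.22% of all tested genes called higher and 1.79% called lower. Blocked DESeq2 called 12, against 209 of the 28529 genes it was given, and 0 passed unpaired (0 by DESeq2). At an unadjusted p under 0.05 (unpaired edgeR) there was 1, against 5.49% of all tested genes. Of the 23, 1 had every TIM-1 library above every empty-vector library, against 6.6% of all tested genes, and 0 had every one below, against 5.06%. In replicate 1, 20 were higher and 0 lower, against 11.6% and 12% of all tested genes. The summed level of the list ran from 5355 to 8136 CPM in TIM-1 libraries and from 3935 to 6891 CPM in empty-vector libraries, with replicate 1 the highest of each group. Empty-vector replicate 1, at 6891 CPM, was above TIM-1 replicates 2 and 3 in this sum, while its IGFBP3 level was below theirs. LDHA made the largest part of the sum, with 2957 CPM in empty-vector replicate 1, so the sum follows few genes of the list. The median log2 difference was 0.34 in TIM-1 libraries (blocked) and 0.68 in replicate 1, against 0.00 and -0.01 for all tested genes. CA12, a carbonic anhydrase gene, rose by 0.99 in TIM-1 libraries (blocked) and was higher in replicate 1 by 1.41. For NDRG1, a stress-responsive gene, the same differences were 1.08 and 1.19, and for IGFBP3 they were 0.90 and 0.61. CA12 and NDRG1 overlapped between the groups through empty-vector replicate 1. The fibroblast markers, from a cell type that makes IGF binding proteins, summed to between 9.34 and 15.9 CPM in TIM-1 libraries and between 5.67 and 9.52 CPM in empty-vector libraries. Most of this was COL1A1, which rose by 0.90 (blocked edgeR adjusted p = 0.000265). PDGFRB, the other marker tested, did not pass (blocked edgeR adjusted p = 0.691). DCN stayed at 0, and LUM, COL1A2, COL3A1 and PDGFRA had at most 2 counts in any library. Of the 5 tested urothelial and epithelial markers 1 rose (PPARG) and 2 fell (GATA3 and KRT18) in the blocked fit. The shares of all tested genes were 3.22% and 1.79%, and 0 of the 5 passed edgeR unpaired. The part of these lists in the IGFBP3 difference was not tested.

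The 5 protein-coding genes whose log2 CPM followed IGFBP3 most closely over the 6 libraries, of 11469 candidates with a mean of at least 1 CPM, were DSP, GABARAPL1, KDM7A, SAMD9 and MSN, with Pearson r from 0.993 to 0.997. These libraries share the group and the replicate 1 difference, and no p is given. GABARAPL1, an autophagy gene of the ATG8 family, stood at 16.0, 12.4 and 12.4 CPM in the TIM-1 libraries, against 10.8, 7.79 and 7.48 CPM in the empty-vector libraries. DSP, which encodes the desmosomal plaque protein desmoplakin, stood far lower, between 1.15 and 3.17 CPM, and MSN, which encodes the membrane linker moesin, far higher, between 653 and 860 CPM. SAMD9, an interferon-inducible gene, stood at 5.86, 4.02 and 3.18 CPM in TIM-1 libraries, against 2.94, 1.24 and 1.15 CPM in empty-vector libraries. KDM7A, a histone demethylase gene, stood between 13.6 and 17.0 CPM in TIM-1 libraries and between 9.11 and 13.2 CPM in empty-vector libraries. IRS2, IGF2, IGF1R and IGFBP2 followed IGFBP3 least among the tested genes of the 10, with r of -0.66, -0.19, 0.21 and 0.22.

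The other genes of the pathway were read from lists of 111 genes outside the 10, of which 89 were tested. In the blocked fit 14 rose and 1 fell with TIM-1, against 3.22% and 1.79% of all tested genes. Unpaired, 0 passed in edgeR and 3 in DESeq2, which called 25 of the 28529 genes it was given. At an unadjusted p under 0.05 (unpaired edgeR) there were 9, against 5.49% of all tested genes. All named changes below are from the blocked fit, and none of these genes passed edgeR unpaired. Several lists share genes, which then count in each.

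Other ligands and carriers were absent or nearly so. IGF1, INS and IGFBP1 had 0 counts in all 6 libraries. IGFALS, the acid-labile subunit that joins IGFBP3 in blood, had 0, 1 and 4 counts in TIM-1 libraries, against 2, 3 and 3 counts in empty-vector libraries, and IGFBPL1 had 3, 5 and 15 counts in TIM-1 libraries, against 4, 1 and 3 counts in empty-vector libraries. No gene of this list was tested.

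Of 4 other receptor genes tested 1 rose, against 3.22% of all tested genes called higher. LRP1, an endocytic receptor reported to bind IGFBP3, stood at 123, 75.7 and 73.0 CPM in the TIM-1 libraries, against 87.1, 59.7 and 59.7 CPM in the empty-vector libraries (log2 fold change 0.38, edgeR adjusted p = 0.000355). Its groups overlapped through empty-vector replicate 1, and it was higher in replicate 1 by 0.64. IGF2R, the receptor that clears IGF2, stood at 222 ± 13.0 CPM in TIM-1 libraries, against 225 ± 12.7 CPM in empty-vector libraries (± SD, n = 3 each).

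Of 5 tested genes for other proteins with an IGFBP domain, 2 rose, against 3.22% of all tested genes called higher. CCN5 had 144, 65 and 54 counts in TIM-1 libraries, against 53, 11 and 12 counts in empty-vector libraries (log2 fold change 1.92, edgeR adjusted p = 6.84e-07), and was higher in replicate 1 by 1.76. Its groups overlapped in CPM, with 3.32 in empty-vector replicate 1 against 2.91 in TIM-1 replicate 3. HTRA1, a secreted serine protease, had a log2 fold change of 0.32 and lost its call without pair 2 (edgeR adjusted p = 0.321) and in blocked DESeq2 (0.163). CCN1 and CCN2, matrix proteins regulated by YAP and named after their values were seen, had TIM-1 log2 fold changes of 0.05 each and replicate 1 differences of -0.90 and -1.09.

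Of 11 tested proteases and inhibitors that act on IGF binding proteins, 4 rose and 1 fell, against 3.22% and 1.79% of all tested genes. MMP2, gelatinase A, stood at 17.7, 17.6 and 18.1 CPM in the TIM-1 libraries, against 11.8, 9.21 and 9.29 CPM in the empty-vector libraries. Its groups did not overlap, the log2 fold change was 0.83 (edgeR adjusted p = 9.49e-06), and the difference of replicate 1 was 0.15 (edgeR adjusted p = 0.439). STC1, a stanniocalcin that inhibits PAPP-A, rose by 1.20 and was higher in replicate 1 by 1.53. ADAM12, a protease that can cut IGFBP3 and IGFBP5, rose by 0.46 and was higher in replicate 1 by 0.49. STC1 and ADAM12 overlapped between the groups through empty-vector replicate 1. PLAU, the urokinase gene, fell by 0.23 and its replicate 1 difference was -0.73. The fall no longer passed without pair 2 (edgeR adjusted p = 0.265) and without pair 3 (0.0573). The remaining gene that rose was HTRA1. PAPPA, which encodes PAPP-A and was named after its values were seen, stood at 2.97, 1.98 and 2.70 CPM in TIM-1 libraries, against 1.25, 2.47 and 1.57 CPM in empty-vector libraries, with overlap.

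Below the receptor, 1 of 13 tested adaptor and docking protein genes passed, 1 of 29 in the PI3K, AKT and mTOR cascade and 0 of 10 in the RAS and MAPK cascade, against 5.01% of all tested genes in either direction. GAB1, a docking protein that recruits PI3K and SHP2, rose by 0.76 (edgeR adjusted p = 0.00203; 0.106 by DESeq2 with the block), with 171, 143 and 126 counts in TIM-1 libraries, against 108, 85 and 68 counts in empty-vector libraries. INPP4B, a lipid phosphatase gene of the PI3K list, rose by 0.67 (edgeR adjusted p = 0.00865). Its counts were 112, 157 and 161 in TIM-1 libraries, against 74, 109 and 85 in empty-vector libraries, and its call was lost without pair 2 (0.0734), without pair 3 (0.0583) and in blocked DESeq2 (0.231). Among the RAS and MAPK genes 2 had an unadjusted p under 0.05 (blocked edgeR), near the 18.3% of all tested genes, and DESeq2 with the block called 0. NRAS stood at 253 ± 5.88 CPM in TIM-1 libraries, against 277 ± 8.99 CPM in empty-vector libraries (± SD, n = 3 each). Of 3 tested genes among the IGF2 mRNA binding proteins and H19, 0 passed, also by DESeq2 with the block. At an unadjusted p under 0.05 (blocked edgeR) there was 1, against 18.3% of all tested genes. IGF2BP2 stood at 224 ± 19.4 CPM in TIM-1 libraries, against 211 ± 14.6 CPM in empty-vector libraries, and IGF2BP3 at 23.5 ± 1.09 CPM in TIM-1 libraries, against 20.4 ± 3.83 CPM in empty-vector libraries (± SD, n = 3 each).

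Of 18 tested FOXO factors and FOXO-responsive genes 6 rose and 0 fell, against 3.22% and 1.79% of all tested genes. Their median log2 fold change was 0.23, against 0.00 for all tested genes. TXNIP, which encodes a thioredoxin-binding protein that limits glucose uptake, stood at 7.24, 8.11 and 7.83 CPM in the TIM-1 libraries, against 4.07, 3.77 and 2.11 CPM in the empty-vector libraries (log2 fold change 1.24, edgeR adjusted p = 2.13e-05). KLF9, a Kruppel-like factor gene, stood at 6.90, 3.71 and 4.64 CPM in TIM-1 libraries, against 2.00, 2.16 and 1.57 CPM in empty-vector libraries (log2 fold change 1.38, edgeR adjusted p = 0.000152). Neither gene overlapped between the groups, and their replicate 1 differences were 0.12 (edgeR adjusted p = 0.739) and 0.49 (edgeR adjusted p = 0.150). DEPP1 rose by 1.66 and CCNG2, an unconventional cyclin gene, by 0.58, and both were higher in replicate 1, by 2.02 and 1.04. The remaining genes that rose, named after their values were seen, were CITED2 by 0.36 and FOXO4 by 0.88, which lost its call without pair 1 (edgeR adjusted p = 0.0877), without pair 2 (0.260) and in blocked DESeq2 (0.338). DEPP1, CCNG2 and CITED2 overlapped between the groups through empty-vector replicate 1, and FOXO4 did not overlap. IRS2 and INSR, members of the same list, had blocked log2 fold changes of -0.15 and -0.01.

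**Figure D4:**
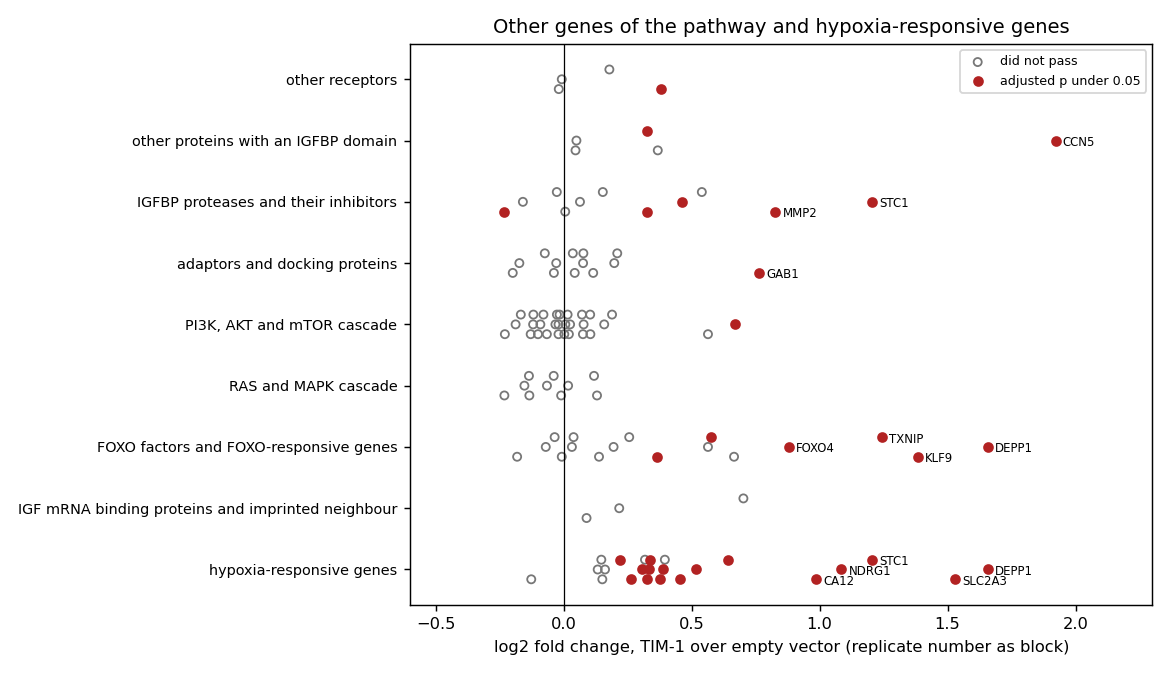
Log2 fold change, TIM-1 over empty vector with the replicate number as a block, of each tested gene of the other lists (points, 1 row per list; filled red, adjusted p under 0.05; open, did not pass). In the rows of the PI3K, AKT and mTOR cascade and of the RAS and MAPK genes nearly all points stay near 0, with INPP4B at 0.67, and 16 filled points lie in the row of hypoxia-responsive genes.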

How the data were processed

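RNA of UMUC3 cells was sequenced in 6 libraries, 3 per vector, grouped by the treatment in the labels and numbered as in the sample titles. The authors deposited raw read counts per Ensembl gene, 1 column per library, with no normalization. HISAT2 2.0.5, featureCounts 1.5.0-p3, DESeq2 1.16.1 and the build hg38 are named, per the submitters' processing notes. An annotation release, strand setting and rule for shared reads are not given in any source used here.

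Tests used edgeR 4.0.16 in R 4.3.3, by its quasi-likelihood method (TMM factors, filterByExpr with a minimum count of 10, 14479 genes kept, two-sided, Benjamini-Hochberg over all tested genes, threshold 0.05), once without other terms and once with the replicate number as a block. Another fit set replicate 1 against replicates 2 and 3 with the group as a term. DESeq2 1.42.0 was an alternative, run without the count filter. Log2 fold changes are TIM-1 over empty vector. CPM use TMM-scaled library sizes, and CPM per kb the union exon length of GENCODE 29, built on the same assembly. Deviations from group means correlated at 0.59, 0.29 and 0.32 between libraries numbered 1, 2 and 3, all above the limit of 0.1 for taking the numbers as pairs. TIM-1 replicate 3 with empty-vector replicate 2 reached 0.31, so replicates 2 and 3 are told apart weakly. The labels do not say what the numbers mark. Library pairs within a group differed by more than sampling noise (chi-square per degree of freedom at least 4.16). The tests were checked on simulated counts. These gave all genes the same scatter beyond counting error and, for the blocked fit, each replicate number its own effect. That check does not cover the weak separation of replicates 2 and 3.

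The members, gene lists and rule for naming genes were chosen with earlier results of these data known. The rule named all 10 members, up to 4 called genes of each other list by smallest p in the blocked fit or else the 2 most abundant, and the 5 genes most correlated with IGFBP3, and 1 gene it named is not reported here. All 187 list entries were matched by symbol. Detection limits of 3 counts cover counting error only.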

Additional observations from a re-analysis of the deposited data

How the results depend on the processing

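Without pairing, 2 genes passed in all. That number was 25 by DESeq2, 72 without the count filter and 725 with the replicate block, and it ran from 1 to 9 when each library was left out, with 9 without empty-vector replicate 1. Of the 10 genes 0 passed unpaired, 1 by DESeq2 (IGFBP3), 1 without the count filter (IGFBP6), 2 with the replicate block and from 0 to 1 without each library, where the 1 is IGFBP3 without empty-vector replicate 1. Of the other pathway genes 0 passed unpaired, 3 by DESeq2, 3 without the count filter and 15 with the replicate block. With the block, 725 genes passed in all, 209 by DESeq2, 2 with no replicate block, and from 209 to 838 without each pair, with 209 when pair 2 was left out and 473 when pair 3 was left out. Of the 10 genes 2 passed with the block and 0 without it, and of the other pathway genes 15 and 0. IGFBP4 passed as well without the replicate 3 pair. In the replicate 1 contrast 4 of the 10 genes passed, 2 by DESeq2 and from 2 to 4 without each library. DESeq2 called 1161 genes higher and 1318 lower in that contrast, of 28529 it was given.

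The log2 fold change of IGFBP3 stayed between 0.71 and 1.18 over the unpaired alternatives and between 0.82 and 1.02 over the blocked ones. Values near 0 changed sign in 5 cases. IRS2 unpaired ran from -0.24 to 0.013 without each library, positive without TIM-1 replicate 1. IGFBP2 with the block ran from -0.0049 (without pair 1) to 0.22, and in the replicate 1 contrast from -0.13 to 0.075 without each library (positive without TIM-1 or empty-vector replicate 2), with 0.019 under no scaling beyond library size. Depth does not limit IGFBP3, with at least 1806 counts in every library, but it does limit IGF2, IGFBP2, IGFBP5 and IGFBP7, each with at most 75 counts in any library. The causes of these shifts were not tested.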
